A study of Mus musculus with 2 samples.

Results

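Chondrocyte-like cells of the aortic root and valve were described in single-cell RNA profiles of Marfan syndrome mice. Cells were chosen on the deposited values: the values of Chad, Col2a1 and Epyc had to sum to at least 5, Myh11 had to lie below 10, C1qa, C1qb and C1qc together below 5, and Pecam1 and Cdh5 together below 2. The rule kept 435 of 7358 cells, 226 of 4397 cells in the library from mice given GLPG0187 and 209 of 2961 cells in the library from mice given vehicle. All mice in both groups were Fbn1C1041G/+, heterozygous for a changed fibrillin-1, a component of elastic fibres. They received GLPG0187, described by the submitters as an integrin av inhibitor, or vehicle each day between 6 and 16 weeks of age, and tissue was taken at 16 weeks. The tissue ran from below the aortic valve to the brachiocephalic artery, so it held the root, the valve and the ascending aorta. Males and females were pooled in equal numbers, and the sources used here do not give the number of animals in each pool. Each group is 1 library, so no difference between groups was tested, and treatment, animals, dissection and library preparation cannot be told apart.

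Chondrocytes make the matrix of cartilage, built on collagen II, collagens IX and XI and aggrecan under the control of the transcription factor SOX9. Cells with part of this program are known from heart valves, whose hinges and leaflets carry load, and from the annulus around the aortic root. CHAD (chondroadherin) is a leucine-rich repeat protein of cartilage that binds collagen II and cells, and EPYC (epiphycan) is a small leucine-rich proteoglycan known from growth plate cartilage.

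The promoters of Chad and Epyc are shown because these genes chose most of the cells and were often found apart, and that of Angptl7, a secreted angiopoietin-like protein, because it led the cells that held both. Each stretch runs from 250 bases before to 50 bases after the gene start in the gene's own direction (RefSeq, GRCm38.p6). It lies at chr11:94564797-94565096 on the plus strand for Chad, at chr10:97643818-97644117 on the plus strand for Epyc and at chr4:148500413-148500712 on the minus strand for Angptl7. Capitals mark AACAAT, a core of SOX sites, or its reverse complement ATTGTT, and TATAAA, the TATA box, or its reverse complement TTTATA; both strands were searched and no matches overlapped.
Chad: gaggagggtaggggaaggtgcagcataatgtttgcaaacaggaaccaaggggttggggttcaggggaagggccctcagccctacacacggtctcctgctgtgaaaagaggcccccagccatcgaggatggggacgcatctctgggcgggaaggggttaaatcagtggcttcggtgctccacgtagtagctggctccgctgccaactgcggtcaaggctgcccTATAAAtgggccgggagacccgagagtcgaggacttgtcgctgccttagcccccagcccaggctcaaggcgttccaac
Epyc: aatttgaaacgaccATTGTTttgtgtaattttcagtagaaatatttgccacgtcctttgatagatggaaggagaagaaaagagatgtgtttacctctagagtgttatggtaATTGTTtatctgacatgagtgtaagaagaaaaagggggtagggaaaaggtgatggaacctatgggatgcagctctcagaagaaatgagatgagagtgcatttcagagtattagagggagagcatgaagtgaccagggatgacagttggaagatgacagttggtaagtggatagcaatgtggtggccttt
Angptl7: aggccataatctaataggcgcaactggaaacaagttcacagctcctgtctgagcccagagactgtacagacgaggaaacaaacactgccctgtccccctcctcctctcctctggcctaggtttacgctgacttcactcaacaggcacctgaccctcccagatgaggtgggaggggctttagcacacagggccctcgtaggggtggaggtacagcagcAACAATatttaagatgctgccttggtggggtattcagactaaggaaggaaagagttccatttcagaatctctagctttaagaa
Chad held 1 TATAAA and 0 AACAAT, Epyc held 2 AACAAT and 0 TATAAA, and Angptl7 held 1 AACAAT and 0 TATAAA. On either strand, AACAAT occurred in 10.7% and TATAAA in 13.6% of 32851 mouse promoters of the same length, so these matches are a description and no sign of binding.

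Each value is a whole number, and sums per cell were already evened out between cells, with a median of 14657 over chosen GLPG0187 cells and 15003 over chosen vehicle cells. They are not UMI counts, and the depth of each cell is unknown. Chosen cells had medians of 3723 genes detected in GLPG0187 and 3711 in vehicle, close to the 3777 and 3803 genes of the other cells. Scrublet called none of the chosen cells doublets: 0 of 226 GLPG0187 cells, which allows a share of up to 1.62% (exact 95% bound), and 0 of 209 vehicle cells, up to 1.75%. Macrophage markers summed to 2.48 in chosen GLPG0187 cells and 0.507 in chosen vehicle cells, against 37.6 and 31.3 in other cells. Contractile muscle markers summed to 31.1 and 29.5, against 375 and 250 in other cells. Endothelial markers summed to 1.80 and 1.87, against 4.55 and 4.78 in other cells. These lists hold Myh11, the C1q genes, Pecam1 and Cdh5, which the rule limits. Low levels of such markers thus follow in part from the choice of cells and are no separate check of purity. Fibroblast markers were not low: their summed level was 209 in chosen GLPG0187 cells and 197 in chosen vehicle cells, against 104 and 116 in other cells. Markers of modulated muscle cells, a list that holds Cytl1, Spp1 and Fn1, summed to 197 and 249, against 56.8 and 66.0 in other cells. The libraries shared 5 cell barcodes, 1 of them in a chosen cell. Cells of the 2 libraries are called GLPG0187 cells and vehicle cells. Gene values below are mean values per cell unless stated. Intervals of shares are exact Clopper-Pearson 95% intervals, and those of differences combine the limits of the 2 shares. Both cover counting error only and do not test the groups.

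The chosen cells were not 1 kind of cell. In the GLPG0187 library 87 cells had Chad as their one rule gene above 0, 39 had Chad and Epyc without Col2a1, 19 had Col2a1, and 81 had Epyc alone. In the vehicle library these were 72, 41, 34 and 62 cells. Chad reached 262 in 1 GLPG0187 cell and 346 in 1 vehicle cell, with medians of 31 and 45.5 in the Chad only cells. Epyc had medians of 13 and 12 in the Epyc only cells, with highest values of 87 and 77. These 4 subsets were set after the values had been seen, and they are used below to show which results rest on which cells.

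**Figure D1:**
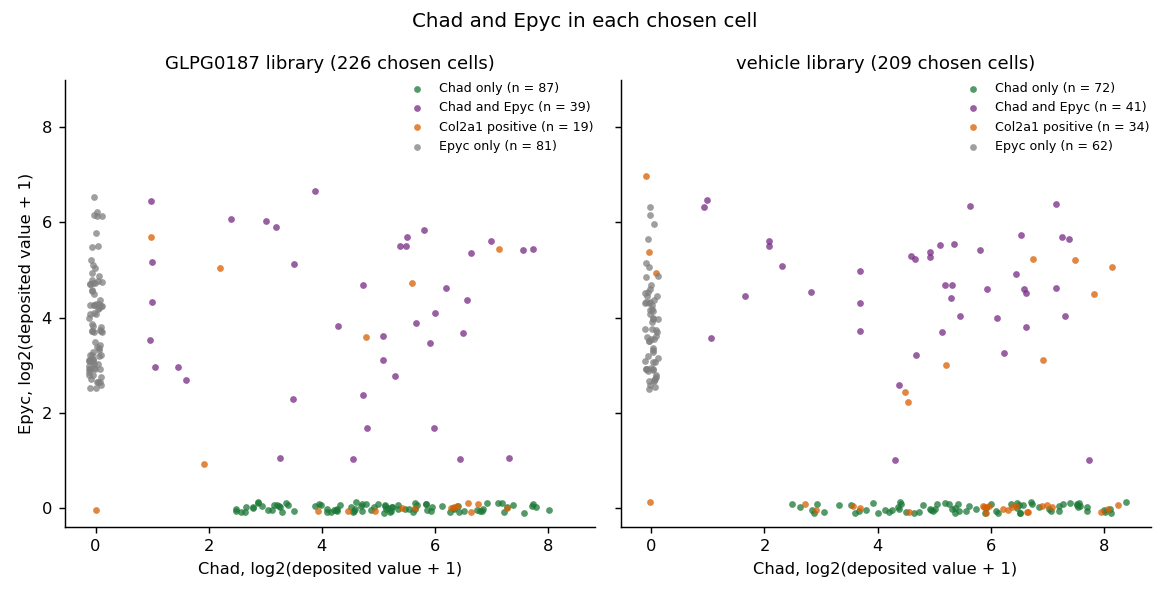
Chad (horizontal) against Epyc (vertical) in each chosen cell, both as log2(deposited value + 1), with the GLPG0187 library on the left and the vehicle library on the right; points are moved by up to 0.12 at random so that they can be seen, and colours give the 4 subsets. Most cells lie on 1 axis, with 81 GLPG0187 and 62 vehicle Epyc only cells stacked at a Chad value of 0.

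The name chondrocyte-like fitted Col2a1 positive cells best, Chad only cells in part and Epyc only cells least. Chondrocyte markers outside the rule summed to 416 and 331 (GLPG0187 and vehicle), 212 and 248, and 46.4 and 89.0 in these subsets. Cartilage collagens summed to 19.4 and 32.7 in Col2a1 positive cells but 3.08 and 2.63 in Chad only cells. This list holds Col2a1, which defines the first of these subsets and is absent from the second by definition. The gap between these sums was thus set in part by how the subsets were made. Tendon and fibrocartilage genes summed to 398 and 386 in Col2a1 positive cells and 523 and 540 in Chad only cells. Comp, the cartilage oligomeric matrix protein, averaged 86.4 in Chad only cells, 83 in Chad and Epyc cells, 126 in Col2a1 positive cells and 17.0 in Epyc only cells of the GLPG0187 library; in the vehicle library these means were 110, 115, 148 and 27.8. Acan, which encodes aggrecan, was near 0 in Epyc only cells, at 0.0370 among GLPG0187 cells and 0.258 among vehicle cells, against 1.41 and 1.65 in Chad only cells. The fibroblast gene Clec3b, for the plasminogen-binding protein tetranectin, averaged 10.7 and 10.9 in Epyc only cells and 0.276 and 0.0278 in Chad only cells. Fibroblasts, taken as other cells with Pi16 and Clec3b summing to at least 5, had Clec3b means of 16.5 and 13.2. Clec3b helped to choose these fibroblasts, so its level in them was set in part by that choice. Epyc only cells held Comp at levels between those of fibroblasts, at means of 2.49 and 4.08, and those of the other chosen cells.

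The same split appeared when each cell was placed beside its 20 nearest neighbours over 2000 variable genes without the genes of the rule. Of the neighbours of Col2a1 positive cells, 90.9% were chosen cells, against 72.3% for Chad and Epyc cells, 62.3% for Chad only cells and 21.7% for Epyc only cells, over both libraries. Chosen cells made up 5.91% of all cells of both libraries. Fibroblasts made up 41.9% of the neighbours of Epyc only cells and 2.83% of those of Chad only cells. Chad only cells had 17.99% of their neighbours among root mesenchymal cells, taken as other cells with Prss35 and Tbx20 summing to at least 10. Epyc only cells are kept in the counts, and the overall share, the gene counts and the medians of the main lists are also given without them.

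**Figure D2:**
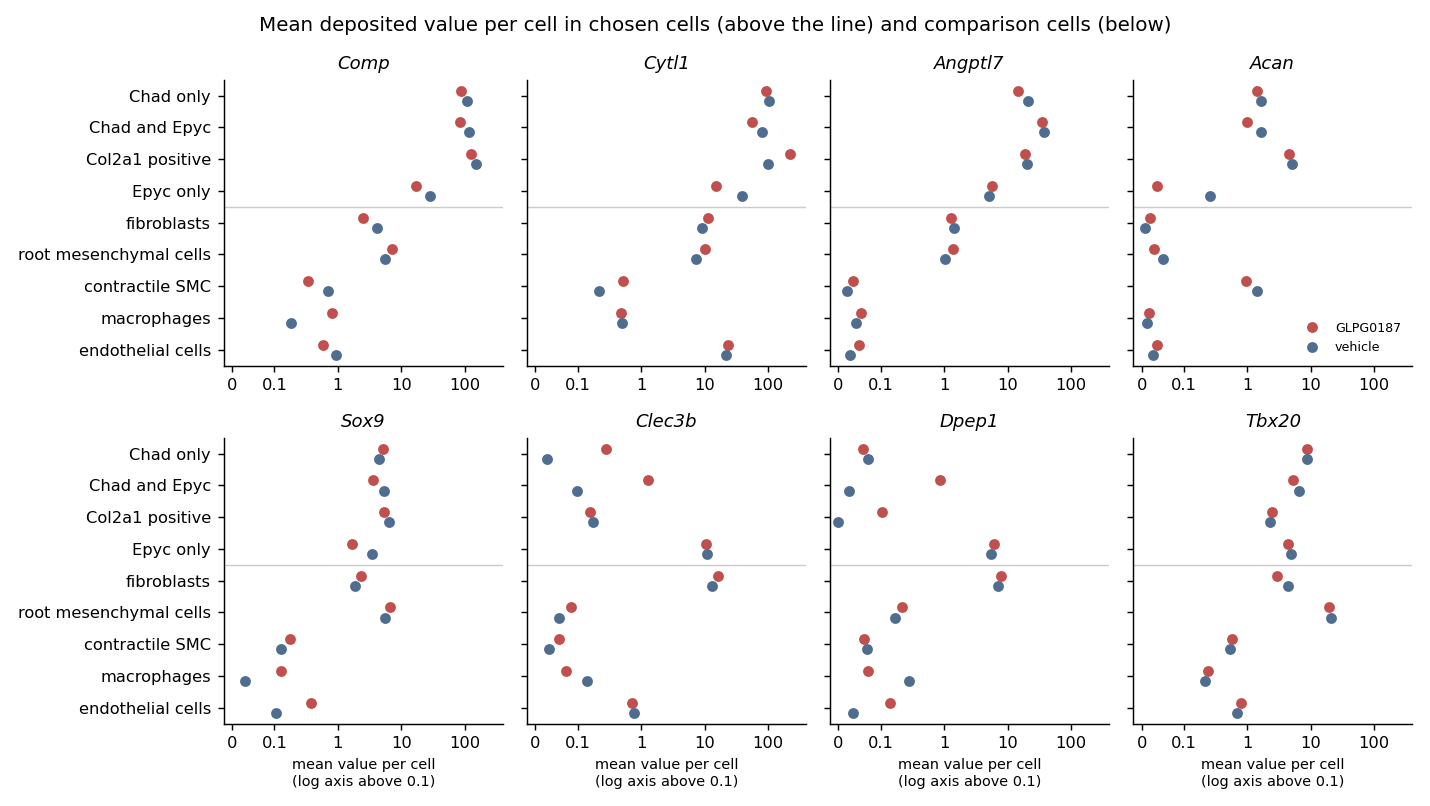
Mean deposited value per cell (horizontal, a log axis above 0.1) of 8 genes in the 4 subsets of chosen cells, above the grey line, and in 5 kinds of comparison cells, below it; red points are the GLPG0187 library and blue points the vehicle library. Epyc only cells lie beside fibroblasts for Clec3b and Dpep1 and below the other chosen cells for Comp and Acan, in both libraries. Clec3b helped to choose the fibroblasts.

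Values near the threshold show the same mixture. Cells just inside it, with a sum of 5 or 6, numbered 23 among GLPG0187 cells and 17 among vehicle cells, with Comp means of 23.8 and 15.8 and Clec3b means of 12.1 and 6.88. Cells just outside it, with a sum of 3 or 4 and within the other limits, numbered 38 and 21, with Comp means of 10.9 and 27.7 and Clec3b means of 9.79 and 10.1. Cells with a sum of at least 20 numbered 129 and 139, with Comp means of 91.2 and 124 and Clec3b means of 0.969 and 0.561. The limits on Myh11, the C1q genes, and Pecam1 with Cdh5 removed 16 GLPG0187 cells and 3 vehicle cells that had reached the sum.

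Against all other cells, the chosen cells were led by cartilage, tendon and bone matrix genes. The cells were chosen on their values, so this comparison is a description. Of 3686 genes with a mean of at least 0.5 among the chosen cells of both libraries, 60 (1.63%) were at least 3-fold higher than in all other cells in both. Without the Epyc only cells there were 80 such genes, 56 of them among the 60. Chad averaged 33.1 in chosen cells and 0.0750 in other cells of the GLPG0187 library, and 53.5 and 0.105 in the vehicle library. Comp was not used by the rule and averaged 64.2 against 3.09 in the GLPG0187 library and 92.8 against 4.06 in the vehicle library, 20.8-fold and 22.9-fold higher. It was above 0 in 72.6% of chosen GLPG0187 cells and 79.9% of chosen vehicle cells.

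The other genes used to mark these cells were also higher in the chosen cells of both libraries. Col11a1, a minor fibrillar collagen of cartilage, was 28.6-fold and 36.6-fold higher than in other cells, at means of 1.14 in chosen GLPG0187 cells and 2.02 in chosen vehicle cells. Angptl7 was 23.9-fold and 26.5-fold higher, and Penk, the precursor of the enkephalin opioid peptides, 6.32-fold and 9.49-fold higher. Cytl1, a small secreted protein known from cartilage, was 11-fold and 11.8-fold higher, but 1 cell of the GLPG0187 library reached 1780 and endothelial cells also held Cytl1, at means of 23.5 and 22.04. Beyond the rule, 15 of 16 chondrocyte markers found in the files were at least 2-fold higher in both libraries, against 3.64% of the 18914 genes compared; Sox9, the SOX9 gene, was 2.00-fold and 2.53-fold higher, at 3.62 and 4.68. Sox9 was not higher than in root mesenchymal cells, which averaged 6.60 and 5.48.

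The genes with the largest ratios included secreted matrix proteins that bind collagen. Cilp2, of the cartilage intermediate layer protein family, was 27.2-fold higher in each library. Fmod, the collagen-binding proteoglycan fibromodulin, was 7.67-fold and 6.79-fold higher, at 18.8 and 22.1 per chosen cell and in 75.7% and 82.8% of chosen cells. Chrdl1, a secreted BMP antagonist, was 7.72-fold and 8.43-fold higher, and Tnfrsf11b, the decoy receptor osteoprotegerin, 6.43-fold and 6.87-fold higher. 1500015O10Rik was found in most chosen cells, 90.3% and 92.3%, at means of 117 and 134 against 7.74 and 8.94 in other cells. Omd and Aspn, for the leucine-rich repeat proteins osteomodulin and asporin, were also among the 25 leading genes, with Myoc, which encodes myocilin.

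Other leading genes were held by few cells. Ibsp, which encodes bone sialoprotein, was above 0 in 6.19% of chosen GLPG0187 cells and 9.09% of chosen vehicle cells, and the 5 highest cells held 88.9% and 90.6% of its sum. Lcn2, for the iron-siderophore binding protein lipocalin 2, had 76.7% and 65.6% of its sum in 5 cells, and Hp, for haptoglobin, 76.6% and 86.3%. Means of these genes describe single cells more than the population.

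The 4 subsets had different leading genes. Chad only cells were led by Npy, for neuropeptide Y, at 5.95 in GLPG0187 cells and 6.92 in vehicle cells against 0.288 and 0.248 in the remaining chosen cells, and by Scx, a transcription factor of tendon and ligament cells, at 3.87 and 4.93 against 1.05 and 1.47. The collagen crosslinking enzyme gene Loxl2, the thrombospondin Thbs4 and Cilp2 followed. Most of the Npy lay in a few cells, as 5 cells held 78.1% and 65.2% of its sum over chosen cells. Tbx20, a transcription factor of the heart and its valves, averaged 8.69 and 8.85 in Chad only cells, against 2.47 and 2.24 in Col2a1 positive cells and 19.4 and 20.8 in root mesenchymal cells.

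Chad and Epyc cells had the most Angptl7, at 34.3 in GLPG0187 cells and 37.4 in vehicle cells against 11.1 and 15.0 in the remaining chosen cells. Penk averaged 14.1 and 22.7 there against 6.37 and 11.7, and Apoe, for the lipid carrier apolipoprotein E, 165 and 131 against 99.6 and 74.9. Col2a1 positive cells came closest to cartilage. They were led by Bpifb1, 3110079O15Rik and Cnmd, the last of which encodes chondromodulin, a cartilage protein that limits vessel growth and averaged 6.37 and 3.76 against 0.227 and 0.383. The collagen IX genes Col9a1 and Col9a3, Col11a1, Acan and Fn1 were also among their 12 leading genes; Col9a1 averaged 2.00 and 2.44 against 0.213 and 0.229. The Col2a1 positive cells numbered 19 and 34, so their means rest on few cells.

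Epyc only cells were led by Clec3b, Dpep1, Smoc2, Fmo2, Ly6a and Scn7a. Dpep1, for a membrane dipeptidase, averaged 6.11 in GLPG0187 cells and 5.42 in vehicle cells, against 0.283 and 0.0408 in the remaining chosen cells. Mmp3, the matrix protease stromelysin, was also among their 12 leading genes, at 18.1 and 10.3 against 2.33 and 1.44.

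Chosen cells were a smaller share of the GLPG0187 library. Their share was 5.14% (4.51 to 5.83) there, against 7.06% (6.16 to 8.04) of the vehicle library. The difference was -1.92 percentage points (-3.09 to -0.784). Among cells within the 3 upper limits, which leaves out most muscle, macrophage and endothelial cells, the shares were 10.2% (8.97 to 11.5) and 10.9% (9.55 to 12.4), with a difference of -0.720 (-2.65 to 1.19). The gap thus depends on which cells are in the denominator, and digestion and sorting came before cells were counted. Among cells with Xist and no Y-linked gene (Xist-only) the shares were 5.22% and 5.68% (difference -0.456, -2.52 to 1.55), and among cells with a Y-linked gene and no Xist (Y-only) 5.20% and 7.13% (difference -1.93, -3.50 to -0.436). Xist-only chosen cells numbered 60 with GLPG0187 and 54 with vehicle, and Y-only chosen cells 141 and 119.

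Of the subsets, Col2a1 positive cells differed most in share. Of the chosen cells they were 8.41% (5.14 to 12.8) with GLPG0187 and 16.3% (11.5 to 21.98) with vehicle. The difference was -7.86 percentage points (-14.4 to -1.39). Of all cells they were 0.432% (0.260 to 0.674) and 1.15% (0.796 to 1.6). Within Y-only chosen cells the shares were 9.22% and 18.5%, with a difference of -9.27 (-18.4 to -0.384), and within Xist-only chosen cells they rested on 1 and 4 cells. Epyc only cells made up 35.8% and 29.7% of the chosen cells (difference 6.18, -2.98 to 15.2). Chad only cells made up 38.5% and 34.4% (4.05, -5.33 to 13.3), and Chad and Epyc cells 17.3% and 19.6% (-2.36, -10.0 to 5.23). With 1 library per group, these intervals do not set 1 subset apart from another. Without the Epyc only cells, chosen cells were 3.30% (2.79 to 3.87) of all GLPG0187 cells and 4.96% (4.21 to 5.81) of all vehicle cells.

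**Figure D3:**
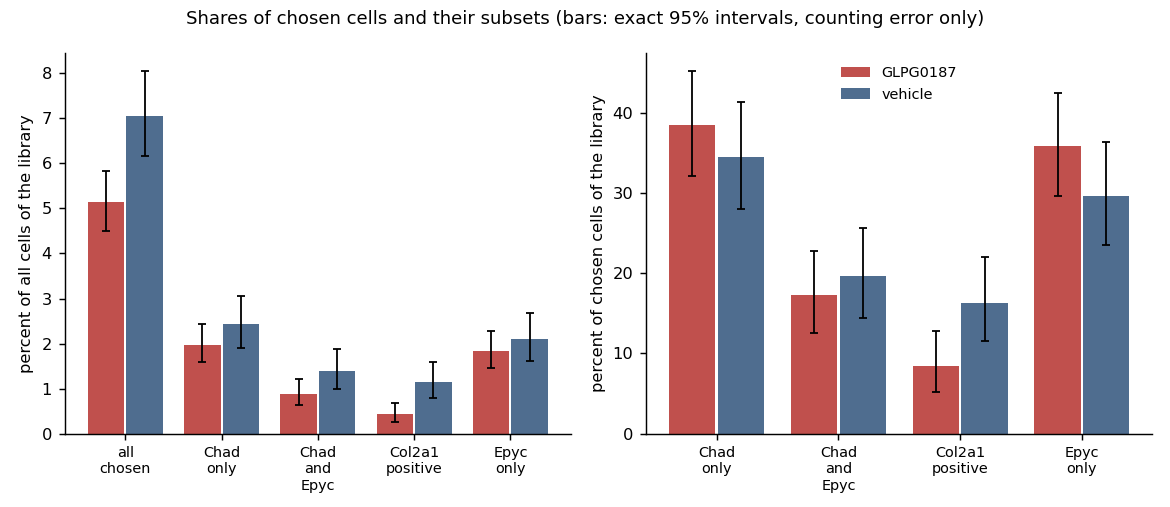
Shares of chosen cells and of their subsets, as a percent of all cells (left) and of chosen cells (right), with the GLPG0187 library in red left of the vehicle library in blue; error bars are exact 95% intervals and cover counting error only. Among chosen cells, Col2a1 positive cells stand at 8.41% with GLPG0187 and 16.3% with vehicle.

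Between the libraries, cartilage matrix genes were lower and interferon and MHC class II genes higher in the chosen cells of the GLPG0187 library. Values were summed over the chosen cells of a library and divided by their total, and log2 ratios are GLPG0187 over vehicle after adding 1 to each sum. Of 6704 genes with a sum of at least 100 over both libraries, 172 (2.57%) were higher by 1.5-fold or more and 105 (1.57%) were lower by as much, and the median log2 ratio was 0.01. These are counts by size, with no test. In both Xist-only and Y-only chosen cells, 155 of the 172 and 95 of the 105 kept their direction. These cells are part of the sums that picked the genes, so agreement is partly built in and is no replication. The same share over all measured genes is not given. Without the Epyc only cells, 120 of 5218 measured genes were higher and 98 lower, and 65 of these higher and 47 of these lower genes were among those counted over all chosen cells. Over all other cells, 53 (0.791%) of the 6704 genes were higher and 37 (0.552%) lower by that size, and these included 29 of the 172 and 12 of the 105.

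The collagens of cartilage were lower in the chosen cells of the GLPG0187 library. Of 6 measured members of 8, 4 had a log2 ratio of -0.32 or lower and 0 of 0.32 or higher, with a median of -0.67; over all measured genes 8.96% were lower and 9.73% higher by that size. Col2a1 averaged 0.673 in GLPG0187 cells and 2.78 in vehicle cells (log2 ratio -2.03), but it chose the cells, and 5 cells held 77.0% and 80.8% of its sum. Col11a1 was lower, at 1.14 and 2.02 (-0.81), and above 0 in 36.3% and 45.0% of chosen cells. The median of the collagens was -0.64 without the Epyc only cells, and by subset it was 0.32 in Chad only, -0.85 in Chad and Epyc, -0.43 in Col2a1 positive and -0.38 in Epyc only cells. In Chad only cells Col11a1 stood at 1.22 and 1.24. The share of Col2a1 positive cells was also smaller in the GLPG0187 library; its part in the ratios was not tested.

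Among 14 measured cartilage matrix proteins, 7 were lower and 1 higher by 0.32, with a median of -0.39 and of -0.38 without the Epyc only cells. The direction was not the same in all subsets, with medians of -0.40 in Chad and Epyc, -0.23 in Chad only, 0.07 in Col2a1 positive and 0.10 in Epyc only cells; over all measured genes the median was 0.19 in Col2a1 positive cells. The summed level of the list was 465 in Col2a1 positive GLPG0187 cells and 402 in Col2a1 positive vehicle cells. The same list had a median of -0.41 over all other cells, where these genes are low. Comp averaged 64.2 in the GLPG0187 library, with a median of 39 and a highest value of 438, against 92.8, 66 and 511 in the vehicle library (log2 ratio -0.52). Its log2 ratio was negative in each of the 4 subsets, between -0.71 in Epyc only cells and -0.25 in Col2a1 positive cells, and was -0.67 among Xist-only cells and -0.42 among Y-only cells. The values of single cells overlap over nearly the whole range. Hapln1, the link protein that ties aggrecan to hyaluronan, averaged 0.518 and 0.943 (-0.84), Acan 1.11 and 1.78 (-0.67) and Matn4, the adapter protein matrilin 4, 0.465 and 0.833 (-0.82). Prg4, which encodes the joint lubricant lubricin, differed little, at 38.1 and 41.3 (-0.10).

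Of 8 measured chondrogenic transcription factors, 3 were lower and 0 higher, with a median of -0.31 and of -0.15 without the Epyc only cells. Sox9 averaged 3.62 in GLPG0187 cells and 4.68 in vehicle cells (-0.36), and its log2 ratio was -0.12 without the Epyc only cells. Sox5, a partner of SOX9, had a log2 ratio of -0.05. Penk averaged 7.71 and 13.8 (-0.83), but in Chad only cells it was higher in the GLPG0187 library, at 5.30 and 3.31 (0.69), so its direction rests on the other subsets.

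Over all chosen cells, genes of mineralizing tissue were lower in the GLPG0187 library, but the subsets differed. Spp1, which encodes osteopontin, averaged 11.7 in GLPG0187 cells and 32.3 in vehicle cells (log2 ratio -1.45) and was above 0 in 38.1% and 60.3% of chosen cells. Its 5 highest cells held 35.5% and 41.9% of the sum, and the log2 ratio without them was -1.31. In Chad only cells Spp1 stood at 21.4 and 22.9 (-0.09), and in Epyc only cells at 1.20 and 27.7 (-4.51). A single vehicle Epyc only cell reached 1233, and the highest GLPG0187 Epyc only cell 72. Without the vehicle cell the vehicle mean was 7.90 and the log2 ratio -2.71. With the highest cell of each library left out, the means were 0.31 and 7.90 and the log2 ratio -4.60. Of 6 measured genes of hypertrophic and mineralizing chondrocytes, 4 were lower and 1 higher, with a median of -0.83, which was -0.06 without the Epyc only cells. Within subsets the median was -0.05 in Chad only, 0.11 in Chad and Epyc, -0.44 in Col2a1 positive and 0.01 in Epyc only cells. Among Xist-only chosen cells it was -2.94, among Y-only chosen cells -0.11, and -0.66 over all other cells. Cthrc1, a secreted protein of remodelling matrix, averaged 0.730 and 1.68 (-1.19) and was lower in each of the 4 subsets, between -1.93 in Epyc only and -0.77 in Chad only cells. Mgp, the calcification inhibitor matrix Gla protein, was above 0 in all chosen cells and differed less, at 641 and 773 (-0.25).

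**Figure D4:**
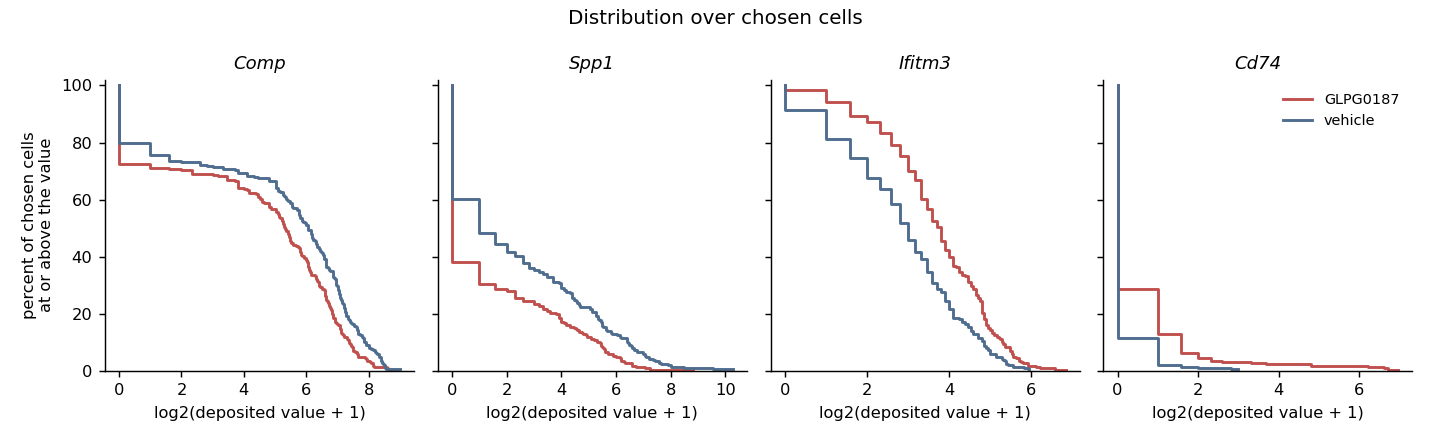
Percent of chosen cells at or above each value (vertical) against log2(deposited value + 1) (horizontal) for Comp, Spp1, Ifitm3 and Cd74, with the GLPG0187 library in red and the vehicle library in blue. Spp1 is above 0 in 38.1% of the GLPG0187 cells and 60.3% of the vehicle cells, and Ifitm3 in 98.2% and 91.4%; Cd74 is at 0 in most cells of both libraries, with a tail to 125 in the GLPG0187 library.

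Interferon-stimulated genes were higher in the chosen cells of the GLPG0187 library as a whole list. All 10 measured members of 14 were higher by at least 0.32, with a median log2 ratio of 1.21. Ifitm3, a membrane protein that blocks virus entry, was found in nearly every chosen cell and averaged 17.5, with a median of 13, in the GLPG0187 library, against 10.6, with a median of 7, in the vehicle library (0.74). Iigp1, an interferon-induced GTPase, averaged 2.24 and 0.373 (2.58), and Ifi27l2a 9.73 and 4.21 (1.22). Medians of the list were 1.11 without the Epyc only cells, 1.46 in Xist-only, 1.70 in Y-only, 1.51 in Epyc only, 1.58 in Chad and Epyc and 1.05 in Chad only cells, and -0.38 in Col2a1 positive cells. The list was also higher over all other cells, with a median of 0.81, and over fibroblasts, with 0.80. Whether the chosen cells differ from the rest in this was not tested.

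MHC class II genes, which present peptides to T cells, were higher, and 3 cells carried a large part of the sums. Cd74, the invariant chain that guides class II molecules, averaged 2.38 in GLPG0187 cells and 0.182 in vehicle cells (log2 ratio 3.69), and H2-Aa, H2-Ab1 and H2-Eb1, which encode class II chains, had log2 ratios of 3.31, 2.32 and 2.28. All 5 measured members of 7 were higher, with a median of 2.32 and of 2.89 without the Epyc only cells. Macrophage RNA moved with them: the summed level of 12 macrophage markers was 2.48 per chosen GLPG0187 cell and 0.507 per chosen vehicle cell, against 37.6 and 31.3 in other cells. In single cells, 3 GLPG0187 cells and 0 vehicle cells had Lyz2 and Tyrobp, both macrophage genes, summing to at least 5, with means of 109 for Cd74 and 104 for Lyz2. All 3 had Chad as their one rule gene, at a mean of 7.33. Without them Cd74 averaged 0.955 and 0.182 (2.38), H2-Aa 0.547 and 0.110 (2.28) and H2-Ab1 0.865 and 0.282 (1.61). H2-Eb1 then averaged 0.466 and 0.177 (1.39), and H2-DMb1, which encodes a chain of the class II peptide loader, 0.202 and 0.191 (0.09), against a log2 ratio of 0.57 with them. So 4 of the 5 members were higher without the 3 cells, and the median over the 5 was 1.61. The class II list was also higher over all other cells, with a median of 0.91. Its median was 1.57 in contractile muscle cells, 0.90 in macrophages, 0.53 in fibroblasts and -0.19 in root mesenchymal cells. Whether the chosen cells differ from these was not tested. Cd74 was above 0 in 28.8% and 11.5% of chosen cells, and in other cells in 39.2% and 23.7%, so low values are spread over many cells of both libraries. The part of free RNA in these low values was not tested.

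**Figure D5:**
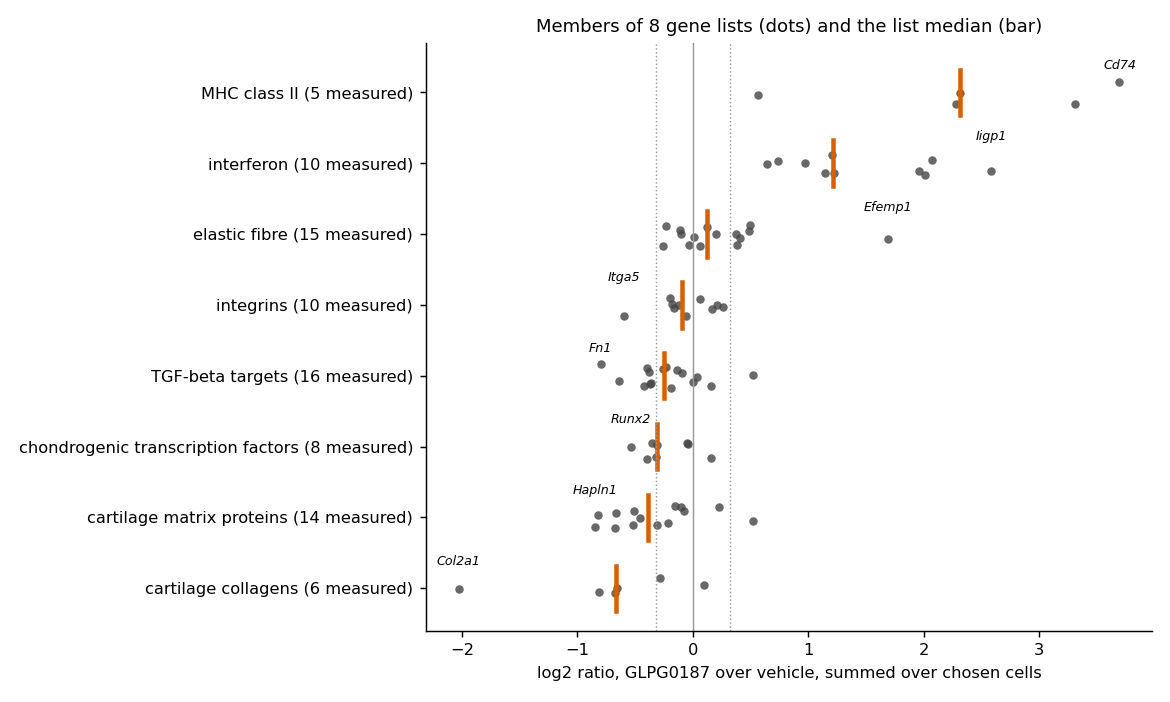
Log2 ratio of GLPG0187 over vehicle (horizontal) of each measured member (dots) of 8 gene lists, summed over chosen cells, with the list median as a bar, dotted lines at -0.32 and 0.32 and the member of largest size named. All MHC class II and interferon members lie right of 0.32, with medians of 2.32 and 1.21, and the cartilage collagens have a median of -0.67.

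Over all chosen cells, the integrins themselves differed little. Of 10 measured integrin genes 0 were higher and 1 lower by 0.32, with a median of -0.09 and of 0.07 without the Epyc only cells. Among Xist-only cells it was -0.39, among Y-only cells 0.03, and by subset it lay between -0.39 in Epyc only and 0.26 in Col2a1 positive cells. Itgav, the av subunit, averaged 1.37 in GLPG0187 cells and 1.51 in vehicle cells (log2 ratio -0.12), and its partner Itgb5 2.61 and 2.75 (-0.06). Itga5, a subunit of the fibronectin receptor, was the lower one, at 0.456 and 0.699 (-0.60), although its log2 ratio was 0.60 over all other cells. Itga10, for a collagen-binding integrin of chondrocytes, was 2.33-fold and 2.61-fold higher in chosen cells than in other cells and averaged 0.588 and 0.675 (-0.18).

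Targets of TGF-beta, a growth factor that av integrins can release from its latent form, were more often lower than higher. Of 16 measured targets 7 were lower and 1 higher by 0.32, with a median of -0.25. Ctgf, a matricellular protein, was found in nearly every chosen cell and averaged 37.2, with a median of 21.5, in the GLPG0187 library, against 58.6, with a median of 47, in the vehicle library (log2 ratio -0.64). It was lower in each of the 4 subsets, between -0.79 and -0.28, and had a log2 ratio of -0.47 over all other cells. Fn1, which encodes fibronectin, averaged 12.5 and 21.96 (-0.80), but it was higher in Chad only cells, at 16.1 and 12.97 (0.32), and in Xist-only cells (0.39). Without the Epyc only cells the median of the list was -0.19, and in Chad only cells -0.04.

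Elastic fibre genes were more often higher than lower in the GLPG0187 library. Of 15 measured members 6 were higher and 0 lower by 0.32, with a median of 0.12 and of 0.20 without the Epyc only cells. Efemp1, for the extracellular protein fibulin-3, averaged 0.836 in GLPG0187 cells and 0.258 in vehicle cells (1.69) and was above 0 in 24.8% and 9.09% of chosen cells. Its log2 ratio was -0.13 over all other cells. Eln, which encodes elastin, averaged 2.44 and 1.76 (0.48), with 4.06 and 4.19 in Epyc only cells and 1.78 and 0.653 in Chad only cells. Fbn1, the gene mutated in these mice, had a log2 ratio of 0.06.

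Genes outside the lists above also differed between the libraries. Fzd4, a receptor for WNT proteins and norrin, averaged 0.504 in GLPG0187 cells and 0.177 in vehicle cells (1.5), and Apod, for the lipid carrier apolipoprotein D, 1.16 and 0.459 (1.35), with 56.7% and 56.2% of its sum in 5 cells. Lcn2 averaged 3.78 and 14.9 (-1.96), and the gap lay in Col2a1 positive cells, at 4.53 and 72.0, while Epyc only cells stood at 8.37 and 6.50. Gm13889 averaged 0.407 and 1.01 (-1.29) and was not lower in Chad only cells (0.18). Igfbp4, a binding protein of insulin-like growth factors, averaged 17.0 and 9.83 (0.81) and was higher in each of the 4 subsets.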

How the data were processed

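Per the labels' protocols, aortas were digested, sorted to exclude debris and made into 10x Genomics 3' libraries. The deposited values, whole numbers with evened totals per cell (coefficient of variation 5.69% and 5.81%), were treated as a score, not as UMI counts; the sources used here do not say how the authors adjusted depth. The submitters' processing notes name Cell Ranger, Seurat and the build mm10, with no version or role. Both files hold 18920 genes.

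Groups were taken from the treatment label. Sums over chosen cells were divided by their total, and 1 was added to each sum. Genes were counted by size with no p-value, since cells are not replicates. Lists were described by medians and by members past 0.32 on the log2 scale. The recipe recovered simulated 2-fold changes. The simulation had no spread between cells and changed only genes with sums above the minimum used here. It thus does not cover genes whose sums lie in few cells. Doublets were called with Scrublet in scanpy 1.11.5 and kept; Python 3.11.15, numpy 2.4.6 and scipy 1.17.1 were used. The members, lists, subsets and comparison cells were chosen with earlier results of these data known.

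Genes were named by rule: against other cells, the 25 largest ratios among genes with a mean of at least 1 and at least 3-fold higher in both libraries; between libraries, up to 12 per direction with a mean of at least 0.5 and detection in at least 20% of chosen cells, at least 1.5-fold and of the same direction in Xist-only and Y-only cells; then the marker and rule genes, list members, and leading genes of the subsets, which were added after values had been seen. Macrophages, contractile SMC and endothelial cells were taken at C1q sums of at least 20, Myh11 of at least 30 and Pecam1 with Cdh5 of at least 5.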

Additional observations from a re-analysis of the deposited data

How the results depend on the processing

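No paired analysis was possible because each group is 1 library. Alternatives were the thresholds of the rule, doublet removal, Myh11 below 3, Xist-only and Y-only cells, scaling, pseudocount and minimum sums, and, chosen after seeing the data, cells with Chad or Col2a1, Chad only cells, the 5 highest cells of each gene left out, and cells with Lyz2 and Tyrobp summing to at least 5 left out. The 172 higher and 105 lower genes became 107 higher in Xist-only cells, 75 and 68 in Chad only cells, 506 and 426 with sums of at least 30, and 52 and 34 with sums of at least 300. Lists with a median of at least 0.32 in size numbered 8, but 14 in Xist-only cells and 14 with the 5 highest cells left out. The share of chosen cells was 6.00% of the GLPG0187 library at a threshold of 3, and 3.87% and 5.98% (GLPG0187 and vehicle) at a threshold of 10; it was 5.68% of the vehicle library in Xist-only cells, where the difference was -0.456 percentage points, and 3.30% and 4.96% with Chad or Col2a1 above 0. The 60 genes 3-fold above other cells became 94 with means of at least 0.2 and 36 against other cells within the upper limits. In Chad only cells Gm13889 (0.18) and Penk (0.69) turned direction; the cause was not tested. Leaving out the 3 cells with macrophage genes brought the MHC class II median to 1.61 over the same 5 genes, and to 1.95 over the 4 that then still reached the minimum sum. The unknown depth of each cell limits all low values.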

Other observations

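Genes of the glucocorticoid response were lower in the GLPG0187 library, both over chosen cells and over all other cells. Among chosen cells 5 of 10 measured members were lower and 1 higher by 0.32, with a median of -0.32. Over all other cells the median was -0.40. Among Xist-only chosen cells it was 0.34 and among Y-only chosen cells -0.49, so the direction differed. Within subsets it was -0.35 in Chad only, 0.07 in Chad and Epyc, -0.38 in Col2a1 positive and 0.13 in Epyc only cells. Mt1, a metal-binding metallothionein, averaged 26.9 in GLPG0187 cells and 46.1 in vehicle cells (log2 ratio -0.76), with a log2 ratio of 0.67 among Xist-only cells, against -0.97 among Y-only cells. Genes of oxidative phosphorylation differed little, with 1 of 17 higher and 0 lower and a median of 0.14. Of 14 fibrillar and other collagens of soft tissue 1 was higher and 1 lower, with a median of -0.02 over all chosen cells, but the medians were -0.49 in Xist-only, 0.10 in Y-only, -0.39 in Chad and Epyc and 0.62 in Col2a1 positive cells. Of 12 measured inflammatory genes 4 were higher and 5 lower, and the median was -2.13 in Col2a1 positive cells and 0.37 in Epyc only cells. Wif1, a secreted inhibitor of WNT proteins, averaged 56.1 and 37.5 in Col2a1 positive cells of the GLPG0187 and vehicle libraries and 1.48 and 0.452 in Epyc only cells.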
